A study of Homo sapiens with 3 samples.

Results

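The new monolayer (NM) that grew out of melanoma bodies was compared with the original monolayer (OM) of the same cells, to describe which genes had not returned to their starting level after a passage through three-dimensional growth. The comparison uses 2 of the 3 arrays of the study, those labelled NM and OM, and sets the array of the melanoma bodies (MB) beside them as a value. All cells were 1205Lu, an established human melanoma line taken from a lung metastasis of a WM793 xenograft. OM cells had spent 14 days in RPMI-1640 with 10% FCS, the standard medium. MB cells had spent 14 days as three-dimensional bodies in hESC medium (DMEM F-12 with 20% Knock Out serum replacement), and NM cells had spent those 14 days in hESC medium followed by 10 days in the standard medium, with the remaining bodies taken away before RNA was prepared. OM and NM therefore shared their medium at harvest and differed in their history. Each population is 1 culture of 1 line on 1 array, so a fold is a difference between these cultures, no p-value is given, and the OM signals enter both the NM and the MB ratio.

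Melanoma arises from melanocytes, pigment cells that derive from the neural crest. Cultured melanoma cells can move between growth states, and inflammatory signalling through NF-kB, a family of transcription factors held inactive by IkB proteins, is a frequent feature of the invasive ones. A second programme of interest in a changed medium is the amino acid response, in which the transcription factor ATF4 switches on genes for amino acid synthesis, uptake and tRNA charging.

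The 3 arrays share a slide. Of 41000 probes, OM detected 28746 (70.1%) well above background, MB 29126 (71.0%) and NM 26516 (64.7%), so the NM array detected the fewest. Signals are given in arbitrary units (a.u.) on the scale of OM, after each array was divided by its 75th percentile (1758 a.u. in OM, 1960 in MB and 1625 in NM). The housekeeping genes GAPDH and ACTB then had log2 ratios of NM to OM of -0.01 and 0.08, although the other ACTB probes gave -0.09 to -0.57. The only repeated measurements were 264 probes printed in 10 spots, whose spread gave a technical SD of 0.07 for the log2 ratio of single spots above 100 a.u. on both arrays, or 1.05-fold. It was 0.43 where the dimmer array read under 30 a.u. A gene dimmer than background in a monolayer has only a lower bound for its fold ("at least"). For the dim side the bound uses the floor of the array, which is its faintest signal still called above background (20.9 a.u. in OM and 31.5 in NM, scaled), or the measured signal if that was larger.

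NM resembled OM over most of the 21607 genes measured on at least 1 of the monolayer arrays. The median log2 ratio of NM to OM was -0.02. At 2-fold, 897 genes (4.15%) were higher in NM and 2100 (9.72%) were lower, and with ratios against background replaced by their bounds the shares were 3.9% and 6.7%. The lower genes lay mostly among dim signals: under 30 a.u. (geometric mean of the arrays) the median log2 ratio was -0.98 and 49.6% of genes were 2-fold lower, while above 10000 a.u. the median was 0.14, with 1.87% of genes 2-fold higher and 1.30% lower. The smaller number of probes detected on NM moves with this excess of dim lower genes, and its part in it was not tested. When both arrays had to be well above background, 641 of 19404 genes (3.3%) were 2-fold higher and 1038 (5.35%) lower.

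With the threshold of the study, a 5-fold ratio and over 100 a.u. before scaling on the brighter side, 146 probes (0.356%) were higher in NM and 227 (0.554%) lower, and of the 26177 probes well above background on both arrays 69 (0.264%) were higher and 81 (0.309%) lower. The balance turned with the background correction, to 57 probes higher and 25 lower without subtraction and 39 and 17 with normexp. Counting each gene with a RefSeq NM_ accession and a settled name once, 70 of 14840 known genes (0.472%) were called higher in NM and 33 (0.222%) lower. All 70 also passed by their lower bound, but only 21 of the 33 lower genes (0.142% of all) did. The called set of 91 genes held 52 that were well above background on both arrays, 43 higher (0.391% of 10993) and 9 lower (0.0819%). The genes just inside the threshold were IL24 (5.00-fold), TSLP (5.04), SYT12 (5.04), SLC26A2 (5.15) and CXCL3 (5.15), and the ones just outside were WNK4 (4.99), FBXL13 (4.95), LINGO2 (4.93), FABP6 (4.92) and P2RX4 (4.91).

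**Figure D1:**
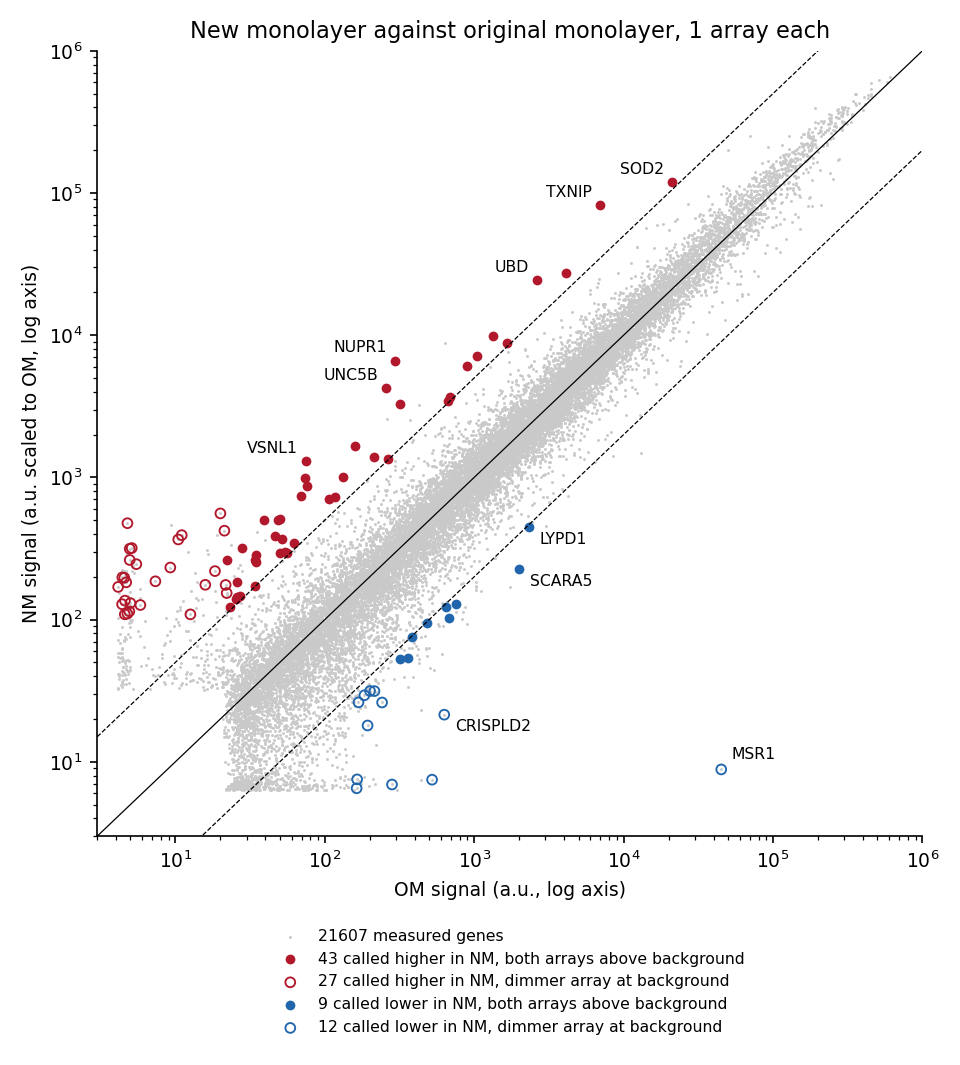
Signal of each measured gene on the OM array (x axis) and on the NM array scaled to OM (y axis), both in a.u. on log axes. Grey points are the 21607 measured genes, red and blue points the 70 called higher and the 21 called lower in NM, open where either monolayer read background. The solid line marks equal signals and the dashed lines 5-fold. The filled red points reach from dim genes up to SOD2 at 119662 a.u. in NM, while all filled blue points lie below 500 a.u. in NM.

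Every gene of the called set except AGT rested on 1 spot per array. No gene called only against background had a 2-fold difference repeated by another measured probe. Of the 39 called genes at background in the dimmer monolayer, 6 had another measured probe, 3 of those moved the same way and 0 reached 2-fold. In 21 of the 39, another spot within 4 rows and 2 columns was bright on the same array alone, against 4 of the 52 genes measured on both arrays. Of those 52 genes, 13 had another measured probe, all 13 moved the same way and 9 reached 2-fold by the lower bound. Among all genes 2-fold apart and measured on both arrays, another probe had the same direction in 107 of 118 (90.7%) higher and 145 of 159 (91.2%) lower genes.

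Among the genes measured on both monolayers, NUPR1, which encodes a small stress-induced chromatin protein, had the largest ratio. Its probe (hg17 chromosome 16, 28456322 to 28456381) read 295 a.u. in OM, 98.4 in MB and 6632 in NM, 22.5-fold higher in NM than OM. VSNL1, a neuronal calcium sensor (chromosome 2, 17758852 to 17758911), read 74.9, 509 and 1295 a.u. in the same order, or 17.3-fold. NUPR1 was thus dimmest on MB, whereas VSNL1 in MB lay between the monolayers.

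UNC5B, a netrin receptor of axon guidance (chromosome 10, 72729603 to 72729662), had 258 a.u. in OM, 366 in MB and 4219 in NM, a 16.4-fold difference. TXNIP, the thioredoxin-interacting protein that also restrains glucose uptake (chromosome 1, 142931491 to 142931550), had 6950, 2914 and 82049 a.u., or 11.8-fold. Its paralogue ARRDC4 stood at 116, 105 and 724 a.u., 6.22-fold higher in NM. UBD, a ubiquitin-like modifier induced by inflammatory cytokines, went from 2630 a.u. in OM and 532 in MB to 24433 in NM, or 9.29-fold. UBD and ARRDC4, like NPTX1, P2RX7, COL15A1, AGT, CLGN and CCN3, were named after their values were seen.

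The remaining genes of the highest 15 that were measured on both arrays were KRT23, a keratin (74.3 a.u. in OM, 137 in MB and 988 in NM, 13.3-fold), ACKR3, a scavenging receptor of the chemokine CXCL12 (39.4, 16.0 and 500 a.u., 12.7-fold, with MB not well above background), and ZNF320, a zinc finger gene (22.2, 40.6 and 263 a.u., 11.8-fold). The other 8 of the 15 had only a bound. SRGN, the proteoglycan serglycin, was at least 19.8-fold higher (422 a.u. in NM, with neither OM nor MB well above background).

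The bounds of CSF3R (at least 22.8-fold), GARIN3 (18.8), ELMO1 (17.5), APOA4 (15.2), DEUP1 (15.1) and CCN6 (12.6) came from NM signals of 263 to 476 a.u. Spots bright on NM alone lay near those of CSF3R, GARIN3, ELMO1, DEUP1 and CCN6. The other probe of APOA4, a gene for a plasma lipoprotein, read 28.3 a.u. in OM and 26.5 in NM (not well above background), a log2 ratio of -0.10. CSF3R and CCN6 had no other probe. The other probes of GARIN3 (7.2 a.u. in NM), ELMO1 (18.3) and DEUP1 (6.6 and 7.2) were not well above background on any array. These 6 values were therefore not repeated by another probe on these arrays.

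For several genes an independent probe gave a like ratio. P2RX7, an ATP-gated ion channel, read 319 a.u. in OM, 534 in MB and 3294 in NM (log2 ratio of NM to OM 3.37), and its other probe gave 3.56. COL15A1, a basement membrane collagen, read 48.5, 1551 and 500 a.u. (log2 ratio 3.37, other probe 3.46). Here MB was the brightest array and NM had come only part of the way down. NPTX1, a neuronal pentraxin, read 75.9, 335 and 871 a.u. (log2 ratio 3.52, and 3.27 for its other probe, which was not well above background in OM). CCN3, a matricellular protein, read 900, 3399 and 6097 a.u. (log2 ratio 2.76, other probe 2.53). AGT, which encodes angiotensinogen and was printed in 10 spots, read 50.4 ± 9.90 a.u. in OM and 475 ± 21.2 a.u. in NM before scaling (SD over 10 spots, technical), 10.2-fold after scaling, so its difference was larger than the spread between spots. CLGN, a testis chaperone, read 1337, 593 and 9948 a.u., 7.44-fold higher in NM. It had 1 spot per array and, like AGT, no other probe.

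Among known genes past 5-fold, fewer were lower in NM than higher (33 against 70). Over all probes at the same threshold more were lower (227 against 146). More of all measured genes, named or not, were also lower than higher at 2-fold. Of the 15 lower genes with the largest fold, 5 were measured in the dimmer array. SCARA5, a scavenger receptor for ferritin, read 2008 a.u. in OM, 4080 in MB and 226 in NM, 8.87-fold lower, but its other probe had 327 a.u. in OM and 263 in NM, a log2 ratio of -0.31. SH2D1B, an adaptor of lymphocyte receptors, read 677, 189 and 103 a.u., 6.59-fold lower, and its other probe was at least 3.35-fold lower (background in NM). SMA4 (6.77-fold), the interferon gene IFNE (6.01-fold, 317 a.u. in OM and 52.7 in NM) and RNF125, a ubiquitin ligase of antiviral signalling (5.83-fold, 750 and 129 a.u.), were the other 3. The other probes of SMA4 and RNF125 were not well above background on any array. LYPD1, a modulator of acetylcholine receptors that was named after its value was seen, read 2335 a.u. in OM, 7796 in MB and 448 in NM, 5.21-fold lower, and its other probe was also lower in NM, by at least 1.88-fold (background in NM).

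The largest fold of all was that of MSR1, the macrophage scavenger receptor, whose probe read 45009 a.u. in OM and background in MB and NM, at least 1428-fold lower in NM. It rested on 1 spot, and the other 2 MSR1 probes were not well above background on any array. CRISPLD2, a secreted protein, was at least 20.0-fold lower on its brightest probe (630 a.u. in OM), and its other 2 probes had log2 ratios of -0.72 and -0.82. PHYHD1 was at least 16.6-fold lower, while its other probe had a log2 ratio of 0.06. The remaining 7, APOC3, ZNF703, PRSS3, CD2, SMPDL3B, CALHM1 and OTOA, were 168 to 282 a.u. in OM with bounds of 5.34-fold to 8.94-fold and no other probe. Spots bright on OM alone lay near those of APOC3, ZNF703, CD2, SMPDL3B, CALHM1 and OTOA, and near that of PHYHD1.

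Chemokines, the secreted proteins that attract leukocytes, formed the gene list that stood highest in NM. Of 20 members on the array 12 were measured, 8 of them were 2-fold or more higher in NM and 0 were 2-fold lower, with a median log2 ratio of 1.91 against -0.02 for all measured genes. Among all measured genes 4.15% were 2-fold higher and 9.72% lower. CXCL8 (interleukin 8, a neutrophil attractant) read 1657 a.u. in OM, 98.0 in MB and 8744 in NM, 5.28-fold higher in NM. CXCL1 read 49621, 7452 and 199983 a.u., or 4.03-fold. CXCL2 read 4097, 878 and 27175 a.u., or 6.63-fold, and its other probe gave a log2 ratio of 2.39. These 3 genes were dimmest on MB and brightest on NM, so that NM did not stop at the OM level.

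CXCL3 followed with 667 a.u. in OM, 153 in MB and 3438 in NM, 5.15-fold, and a log2 ratio of 1.81 on its other probe. CXCL1, CXCL2 and CXCL3 are close copies on chromosome 4, and whether their probes share signal was not tested. CCL20, an attractant of dendritic cells, read 1046, 626 and 7154 a.u., 6.84-fold higher in NM. CCL26, an eosinophil attractant, read 56.1, 49.0 and 292 a.u. (5.21-fold, the same log2 ratio of 2.38 on both probes), CX3CL1 read 5959, 7075 and 20932 a.u. (3.51-fold), and CCL4 read 29.7, 40.1 and 77.1 a.u. (2.59-fold). The measured members under 2-fold were CXCL16 and CCL2 (log2 ratio 0.38 each), CXCL14 (-0.25) and CXCL5 (-0.44). CXCL14 read 5457 a.u. in OM, 247 in MB and 4592 in NM, and thus stood near its OM level again.

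Several promoters of these genes hold a kB-like sequence. Stretches are shown only for genes 2-fold or more higher in NM, so the shared direction of the genes shown was set by that choice. In the 250 bases before the start of transcription (RefSeq promoters, build GRCh38.p14), the motif GGANNTTCC or its reverse complement GGAANNTCC was found in 1060 of 27305 promoters (3.88%). It was in 4 of the 6 chemokine genes that were 2-fold higher and listed there, CXCL8, CXCL1, CXCL2 and CXCL3. Of 8 measured chemokines 5 hold it (the fifth is CXCL5, with a log2 ratio of -0.44). CCL20 and CCL26 hold no match, and CX3CL1, CCL4, CXCL16 and CCL2 were not in the table. The stretches below run 5′ to 3′ on the strand of the gene, with the motif in capitals, and a match in letters is a description and not a measured binding site.
CXCL8 (chr4:73740448-73740516, + strand, 91 bases before the start): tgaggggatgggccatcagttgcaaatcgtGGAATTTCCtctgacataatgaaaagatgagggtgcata
CXCL1 (chr4:73869285-73869353, + strand, 78 bases): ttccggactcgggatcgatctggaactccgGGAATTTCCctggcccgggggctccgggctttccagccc
CXCL3 (chr4:74038729-74038797, - strand, 78 bases): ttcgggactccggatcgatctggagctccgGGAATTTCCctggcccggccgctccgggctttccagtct
CXCL2 (chr4:74099234-74099302, - strand, 77 bases): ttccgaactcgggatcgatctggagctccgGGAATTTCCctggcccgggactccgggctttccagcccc

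The 3 CXCL copies carry the same 9 bases at nearly the same distance, in flanks that differ by few letters. The motif in CXCL8 has the same letters in an unrelated flank.

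Interleukins and related growth factors were split. Of 14 measured members 4 were 2-fold or more higher in NM and 1 was lower, with a median log2 ratio of 0.50. For all measured genes these shares were 4.15% and 9.72%. TSLP, an epithelial cytokine, read 265 a.u. in OM, 77.1 in MB and 1338 in NM (5.04-fold). IL24 read 34.4, 62.0 and 172 a.u. (5.00-fold, log2 ratio 1.72 on its other probe), CSF2, the granulocyte and macrophage growth factor, 37.6 and 144 a.u. in OM and NM (3.83-fold), and IL15, a lymphocyte growth factor, 1728, 1323 and 3792 a.u. (2.19-fold). IL1B, the interleukin with the highest signal, read 235475, 40630 and 358029 a.u., a 1.52-fold difference, and IL6 read 7223, 733 and 11609 a.u., 1.61-fold. IL1A was the member 2-fold lower, with 707 a.u. in OM, 14.8 in MB (not well above background) and 241 in NM, 2.93-fold below OM.

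Genes of the NF-kB system were higher as well. Of 19 measured members 7 were 2-fold or more higher in NM and 0 lower, with a median log2 ratio of 0.67. In comparison, 4.15% of all measured genes were 2-fold higher and 9.72% lower. TNFRSF9, a T cell costimulatory receptor, read 215 a.u. in OM, 17.7 in MB (not well above background) and 1383 in NM, or 6.43-fold. SOD2, the mitochondrial superoxide dismutase, read 21126, 8962 and 119662 a.u., or 5.66-fold, but its dimmer probe (83.8 a.u. in OM and 125 in NM) gave a log2 ratio of 0.58. The adhesion receptor ICAM1 read 48207, 11271 and 99385 a.u. (2.06-fold).

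NFKBIA, the inhibitor IkB alpha and a target of the pathway it blocks, read 37679 a.u. in OM, 20120 in MB and 77026 in NM (2.04-fold). BIRC3 (2.07-fold), TNFAIP2 (2.16-fold) and PTGS2, the inducible cyclooxygenase (2.67-fold, 52.9 a.u. in OM, 328 in MB and 141 in NM), were the other 3 higher genes. The subunits themselves ranged from a log2 ratio of 0.73 for NFKB2 and 0.69 for RELB to 0.43 for RELA, 0.34 for NFKB1 and -0.96 for REL. Among the 17 members with a listed promoter, 7 hold GGANNTTCC or GGAANNTCC, and so do 3 of the 7 that were 2-fold higher. The other holders were NFKBIZ (log2 ratio 0.67), TNFAIP3 (0.41), NFKB1 (0.34) and REL (-0.96). The matches of TNFRSF9, NFKBIA and ICAM1 are shown beside those of the chemokines, in the same build and orientation.
TNFRSF9 (chr1:7940874-7940942, - strand, 73 bases before the start): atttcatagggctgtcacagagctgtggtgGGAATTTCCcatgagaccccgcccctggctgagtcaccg
NFKBIA (chr14:35404792-35404860, - strand, 81 bases): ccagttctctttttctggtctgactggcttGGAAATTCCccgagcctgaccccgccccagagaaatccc
ICAM1 (chr19:10270904-10270972, + strand, 186 bases): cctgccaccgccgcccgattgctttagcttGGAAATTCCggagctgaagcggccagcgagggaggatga

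TNFRSF9 shares the letters of the chemokine motif, while NFKBIA and ICAM1 carry GGAAATTCC, its reverse complement. NFKBIA holds a further match, GGACTTTCC, 242 bases before its start.

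**Figure D2:**
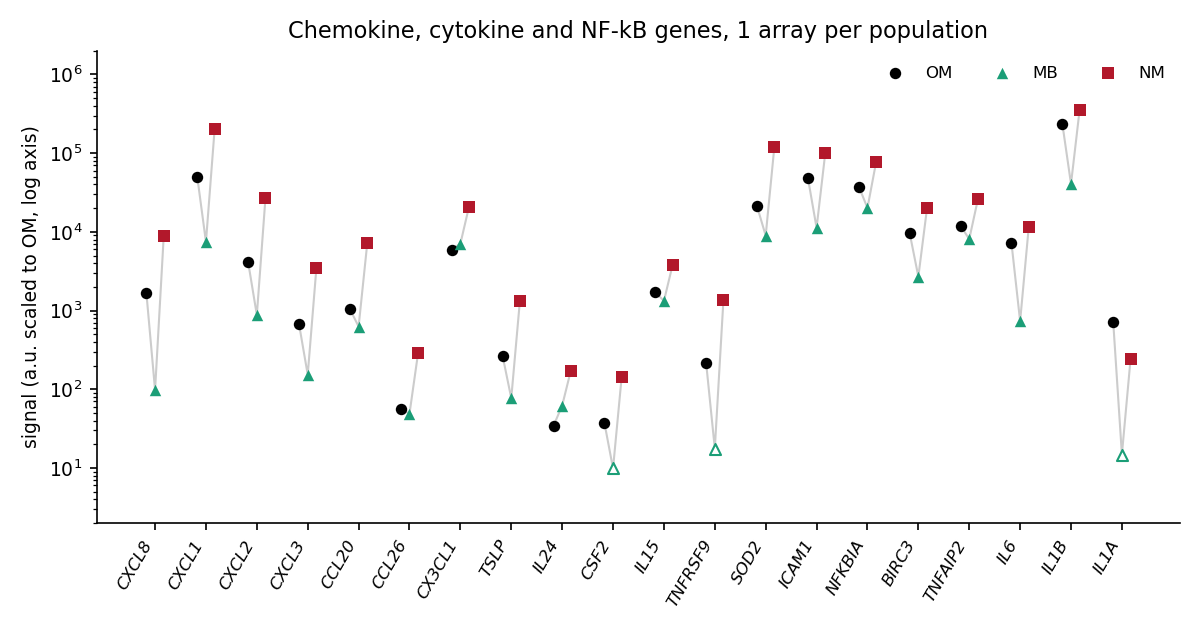
Signals of 20 chemokine, interleukin and NF-kB genes on the OM (black circles), MB (green triangles) and NM (red squares) arrays, in a.u. scaled to OM on a log axis, open where a signal was not well above background. There is 1 array per population and no error bar. NM lies above OM in every gene drawn except IL1A, by 1.52-fold for IL1B up to 6.84-fold for CCL20. The genes drawn are a choice from their lists. Measured members with a log2 ratio below 0 that are not drawn include REL (-0.96), TRAF1 (-0.86), NFKBIB (-0.64), CXCL5 (-0.44) and CXCL14 (-0.25).

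Interferon-stimulated and antigen presentation genes differed less. Across all measured genes 4.15% were 2-fold higher in NM and 9.72% lower. Of 27 measured interferon-stimulated genes 4 were 2-fold higher in NM and 0 lower (median log2 ratio 0.23): RSAD2 (at least 2.72-fold), IFI6 (1674 a.u. in OM and 4740 in NM, 2.83-fold), the transcription factor IRF1 (1455 and 3823 a.u., 2.63-fold) and MX2 (2.26-fold). In the MHC class I list 13 of 14 members had a ratio above 1 (median log2 ratio 0.63), yet 0 reached 2-fold. B2M, the light chain, read 118502 a.u. in OM and 185467 in NM (1.57-fold).

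Targets of ATF4, like the chemokine and NF-kB lists, had a median well above that of all genes. All 30 were measured on both arrays, 8 were 2-fold or more higher in NM and 0 lower, and the median log2 ratio was 0.65. The same shares among all measured genes were 4.15% higher and 9.72% lower. After NUPR1, the largest ratios were those of TRIB3, a pseudokinase that feeds back on ATF4 (70359 a.u. in OM, 20332 in MB and 252657 in NM, 3.59-fold), and DDIT3, the stress transcription factor CHOP (3790, 683 and 12718 a.u., 3.36-fold). SESN2, a leucine sensor (2.35-fold), and VLDLR, a lipoprotein receptor (2.33-fold), came next. Enzymes of amino acid synthesis followed, with CTH for cysteine (5519, 1027 and 11580 a.u., 2.10-fold), ASNS for asparagine (191608, 38213 and 396212 a.u., 2.07-fold) and PSAT1 for serine (33916, 4815 and 69872 a.u., 2.06-fold). NUPR1, TRIB3, DDIT3, CTH, ASNS and PSAT1 were all dimmest on MB.

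Just under 2-fold stood PHGDH, the first enzyme of serine synthesis (log2 ratio 0.96), and MTHFD2, of mitochondrial folate metabolism (0.90). ATF4 mRNA itself had a log2 ratio of 0.26, the cystine transporter gene SLC7A11 0.35 and the glutathione-degrading enzyme gene CHAC1 0.17, with 9743 a.u. in OM, 602 in MB and 10996 in NM, and the members below 0 were SLC7A1 (-0.14) and ATF5 (-0.34). Of the 20 cytosolic aminoacyl-tRNA synthetases, which load amino acids onto tRNA, 0 were 2-fold apart and the median log2 ratio was 0.40, from 0.77 for YARS1 down to -0.93 for HARS1. The core of the amino acid response element, TGATGNAA (reverse complement TTNCATCA), was in 870 of 27305 promoters (3.19%) and in 3 of the 25 listed ATF4 targets (12%). Of the 7 listed targets that were 2-fold higher it was in ASNS alone, where it is shown in capitals, from the same table as the promoters above.
ASNS (chr7:97872439-97872506, - strand, 68 bases before the start): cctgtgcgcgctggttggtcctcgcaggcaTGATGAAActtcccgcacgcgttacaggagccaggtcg

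Chaperones had medians below 0, while the share of members 2-fold lower was near or under the 9.72% of all measured genes. Of 19 ER chaperone genes, whose products fold secreted proteins, 13 had a ratio below 1, 2 were 2-fold lower and 0 higher, with a median log2 ratio of -0.35. SDF2L1 read 57005 a.u. in OM, 39810 in MB and 17581 in NM (3.24-fold lower), and MANF 172399, 145769 and 81245 a.u. (2.12-fold lower). HSPA5, the central ER chaperone BiP, had a log2 ratio of -0.94, whereas HERPUD1 (0.68) and DNAJB9 (0.78) were on the other side of 0. Of 20 measured heat shock chaperones 17 had a ratio below 1 and 1 was 2-fold lower, HSPA2 (4255 a.u. in OM and 1863 in NM, 2.28-fold), with a median log2 ratio of -0.40. HSPA1A, the inducible HSP70, read 35220 and 20308 a.u. (1.73-fold lower).

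**Figure D3:**
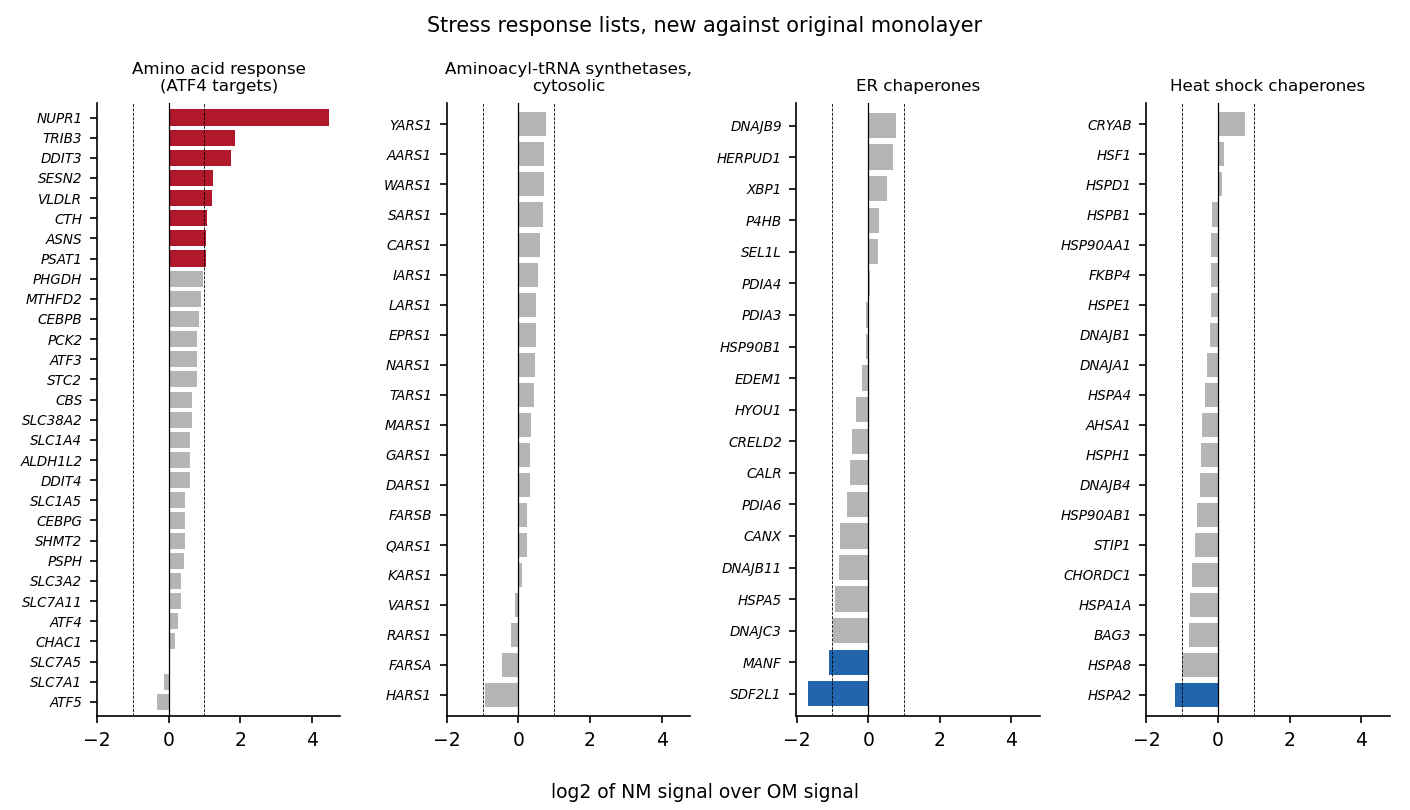
Log2 ratio of NM to OM for each measured member of 4 lists, the amino acid response, the aminoacyl-tRNA synthetases, the ER chaperones and the heat shock chaperones. Bars start at 0, dashed lines mark 2-fold, red and blue bars pass it, and there is no error bar because each population has 1 array. The medians are 0.65, 0.40, -0.35 and -0.40.

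Neural crest and progenitor genes were set against the MB state, in which many of them stood high. Of 25 measured members 1 was 2-fold higher in NM than OM and 6 were lower (5 by the lower bound), with a median log2 ratio of -0.23, where 4.15% of all measured genes were 2-fold higher and 9.72% lower. SOX2, a transcription factor of neural stem cells, read 559 a.u. in OM, 7155 in MB and 311 in NM (1.80-fold below OM), and its other probe gave a log2 ratio of -1.12. ID4, an inhibitor of DNA binding, read 55.3, 1048 and 76.9 a.u. (1.39-fold above OM). S100A4, a calcium-binding protein of motile cells, read 1215, 35061 and 1117 a.u. (1.09-fold below OM). ID4 and S100A4 were thus back within 1.5-fold of OM.

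The receptor gene GFRA2 read 59.7 a.u. in OM, 384 in MB and 69.4 in NM (1.16-fold above OM), but its other 2 probes, brighter in MB, gave log2 ratios of -0.67 (background in NM) and -0.74. LGI4, a secreted protein of glia, read 38.7, 286 and 60.1 a.u. (1.55-fold). Other members went past their OM level to a lower one. GJB1, a gap junction protein of Schwann cells, read 235, 1867 and 65.1 a.u. (3.61-fold below OM), ERBB3, the neuregulin receptor, 737, 3638 and 274 a.u. (2.69-fold) and NES, the intermediate filament nestin, 62112, 85257 and 18905 a.u. (3.29-fold). NOTCH1 stood at 320, 767 and 163 a.u. (1.97-fold below OM). ID3 was 2.13-fold lower and TFAP2B at least 2.11-fold lower, and SOX9 had a log2 ratio of -0.98. NGFR, the nerve growth factor receptor, was the exception, with 123 a.u. in OM, 310 in MB and 568 in NM, 4.61-fold above OM.

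**Figure D4:**
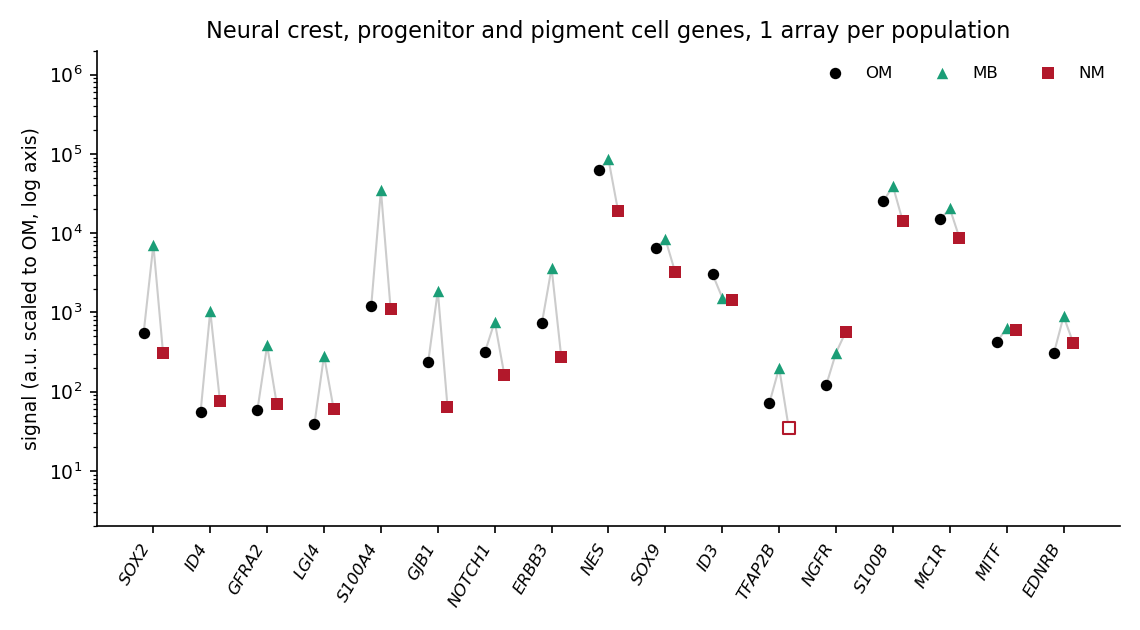
Signals of 17 neural crest, progenitor and pigment cell genes on the OM (black circles), MB (green triangles) and NM (red squares) arrays, in a.u. scaled to OM on a log axis, open where a signal was not well above background. There is 1 array per population and no error bar. ID4, LGI4, S100A4 and the GFRA2 probe drawn lie in NM within 1.55-fold of OM, while GJB1, ERBB3 and NES lie 2.69-fold to 3.61-fold below it and NGFR 4.61-fold above it.

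The label of a melanoma line was checked against melanocyte markers. Of 21 on the array 15 were measured, among them the lineage factors SOX10 (6254 a.u. in OM and 5287 in NM), PAX3 (2887 and 3114 a.u.) and MITF (423 and 596 a.u.) and the melanoma marker S100B (25155 and 14398 a.u.). The pigment enzyme genes TYR and TYRP1 and the receptor gene KIT were not well above background on either monolayer, and MLANA read 31.3 and 28.7 a.u. The lineage factors were thus detected, while TYR and TYRP1 were not and MLANA was dim. These genes do not stand for the whole pigment list, of which 6 members on the array were not measured and MC1R was bright. At 2-fold, 0 markers were higher in NM and 3 lower, of which only BCAN, a brain proteoglycan (630 and 254 a.u., 2.48-fold), passed by the lower bound. At the same fold 4.15% of all measured genes were higher and 9.72% lower. The receptor gene MC1R read 14913 a.u. in OM and 8714 in NM (1.71-fold lower).

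Markers of other cell types gave low or similar sums on both monolayers. The 4 of 8 blood and immune markers that were measured summed to 238 a.u. in OM and 248 in NM, with PTPRC, LYZ, HBA1 and HBB not well above background. Of 7 fibroblast markers 4 were measured, at 11182 and 9898 a.u. in sum, with DCN, LUM and COL3A1 not well above background. Of 8 epithelial markers 4 were measured, all keratins, at 55417 and 42289 a.u., and EPCAM, KRT5, KRT1 and CDH1 were not well above background. Of the 4, KRT18 was 2.67-fold lower in NM. Of 7 endothelial markers 5 were measured, at 274 and 491 a.u., with PECAM1 and CDH5 not well above background. TEK and CLDN5 were at least 10.5-fold and 5.21-fold higher in NM, on 1 spot each. In such bulk RNA, fewer cells of a type and less RNA per cell cannot be told apart.

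Growth factor and immediate early genes were mixed. Of 15 measured receptor tyrosine kinases and EGF ligands 3 were 2-fold higher and 3 lower (median log2 ratio -0.10). The shares over all measured genes were 4.15% higher and 9.72% lower. EGFR read 596 a.u. in OM, 355 in MB and 2231 in NM (3.75-fold higher), while its ligand TGFA read 2879, 3475 and 723 a.u. (3.98-fold lower). PDGFRB was 2.38-fold higher and EPHB2 2.41-fold lower. FGFR2 was at least 6.06-fold higher on 1 dim spot, but its other measured probe had a log2 ratio of 0.49.

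Of the 26 genes of MAPK feedback and the immediate early response, which growth factors and handling of cells switch on within minutes, 2 were 2-fold higher and 4 lower. The lower ones were EGR3 (1728 a.u. in OM and 439 in NM, 3.94-fold), FOSB (3.57-fold), FOS (1703 and 614 a.u., 2.77-fold) and EGR1 (6051 and 2468 a.u., 2.45-fold), and the higher ones SPRY1 (2.35-fold) and EGR2 (2.15-fold). The median log2 ratio of the 26 was -0.01, with 13 above 0 and 13 below. Over all measured genes 4.15% were 2-fold higher and 9.72% lower. CCN2, a target of the transcriptional regulator YAP, read 27142 a.u. in OM, 5831 in MB and 10495 in NM (2.59-fold lower), the 1 member of 12 past 2-fold. CCN1 read 52406, 3991 and 36722 a.u., 1.43-fold below OM.

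Hypoxia response genes leaned higher, with a median log2 ratio of 0.57. Against 4.15% of all measured genes 2-fold higher and 9.72% lower, 4 of 22 measured members were higher and 0 lower. They were CA12, a carbonic anhydrase (4514 a.u. in OM, 9841 in MB and 14532 in NM, 3.22-fold), BNIP3L, a receptor of mitophagy (2.61-fold), the oxygen-sensing transcription factor EPAS1 (2.22-fold) and ANKRD37 (2.06-fold). Among 17 glycolytic enzymes ALDOC (2.91-fold) and ENO2 (2.54-fold) were past 2-fold. In the p53 list GDF15, a stress-induced hormone, read 16617, 11447 and 60011 a.u. (3.61-fold higher), FAS and GADD45A were 2.37-fold and 2.21-fold higher, and BAX, the pore-forming inducer of apoptosis, was 2.59-fold lower.

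The list of NRF2 targets and metallothioneins, which buffer metals, had 0 of 22 members 2-fold higher and 2 lower, NQO1 (2.28-fold) and GCLM (2.11-fold). Its median log2 ratio was 0.46, with 15 members above 0 and 7 below, while 9.72% of all measured genes were 2-fold lower. MT1A and MT1M had log2 ratios of 0.80 and 0.82, under 2-fold. Proliferation genes stood close to OM, with 1 of 38 cell cycle genes 2-fold higher and 1 lower (CDC20, 2.02-fold) and a median log2 ratio of 0.21. The higher one, CCND2, did not pass by its bound (at least 1.91-fold), and MKI67 read 1422 a.u. in OM and 816 in NM.

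Matrix and adhesion genes moved singly. In the metalloproteinase list 2 of 23 measured members were 2-fold higher and 2 lower, against 4.15% and 9.72% of all genes. MMP1, a collagenase, read 4367 a.u. in OM, 339 in MB and 3188 in NM (1.37-fold below OM), while MMP9, a gelatinase, read 1448, 202 and 2662 a.u. (1.84-fold above OM). MMP2 was 2.23-fold higher, MMP13 at least 2.57-fold higher, and MMP16 (2.84-fold) and the inhibitor TIMP3 (133429 and 62318 a.u., 2.14-fold) were lower. The laminin chain gene LAMB3 read 6780, 7792 and 23419 a.u. (3.45-fold higher) and the integrin gene ITGB5 91015, 139150 and 42892 a.u. (2.12-fold lower). Among cadherins, CDH13 read 27068 a.u. in OM and 83938 in NM (log2 ratio 1.63), CDH19 was 2.49-fold and CDH3 5.55-fold higher from dim signals (29.7 and 25.4 a.u. in OM), and CDH1 was not well above background. CDH3 had no other probe, and spots bright on NM alone lay near its own.

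The 15 measured members of the collagen list, which does not hold COL15A1, had a median log2 ratio of -0.20, and COL5A1 (2.05-fold higher in NM) was the 1 member of it past 2-fold. Above 500 a.u. the sign of the list turned, to 0.25 relative to all genes. The list of serpins and plasminogen genes had 0 of 7. In the BMP and TGF-beta list INHBB, an activin subunit, was 3.55-fold higher (68.0 and 241 a.u.) and BMP2 2.20-fold lower. TGFB2 was at least 6.14-fold higher on 1 spot that was at background on OM and MB. In the Notch list the target HEY1 was 2.56-fold higher and DLL1 at least 2.10-fold higher, and MFNG was 2.30-fold lower. In the Wnt list WNT11 was at least 4.36-fold higher, the feedback gene AXIN2 2.12-fold higher and WNT7B 2.50-fold lower.

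Among axon guidance genes ROBO2 (2.55-fold) and SEMA3F (at least 2.16-fold) were higher beside UNC5B, and PLXNA2 was 2.36-fold lower. Of 26 measured HOX genes, which fix position along the body axis, 0 were 2-fold higher and 2 lower, HOXD1 (2.45-fold) and HOXB5 (2.41-fold), with a median log2 ratio of -0.26, a share of lower genes no larger than the 9.72% over all genes. In the pluripotency list SALL4 was 2.11-fold lower and LIN28B at least 1.61-fold higher, and NANOG was not well above background. Of the cancer-testis antigens 4 of 18 were measured, and PRAME read 20713 a.u. in OM, 19616 in MB and 19349 in NM. No measured member of the ribosomal protein, respiratory chain or sterol synthesis lists reached 2-fold, and their median log2 ratios were 0.41 (29 of 30 above 0), 0.13 and 0.11. In the lipid list (median 0.15) 1 of 19 members was past 2-fold. It was ANGPTL4, the lipoprotein lipase inhibitor, which read background in OM, 3998 a.u. in MB and 43.3 in NM, at least 2.07-fold higher in NM.

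**Figure D5:**
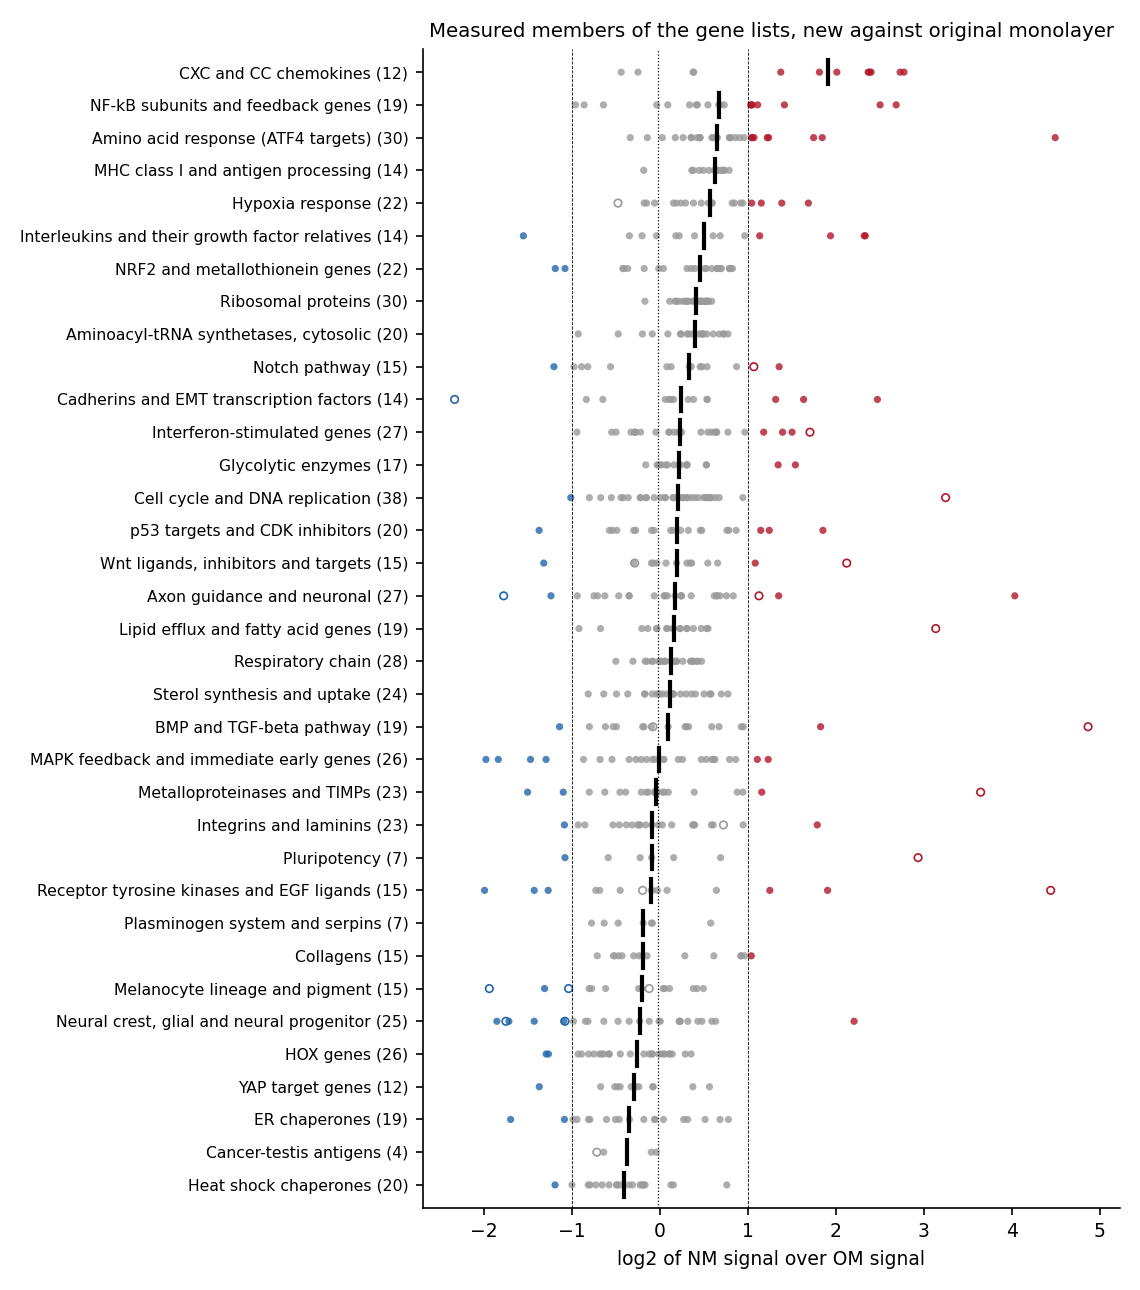
Log2 ratio of NM to OM for every measured member of 35 gene lists, with the number measured in parentheses. Black bars are medians, the dotted line is the median of all measured genes (-0.02), dashed lines mark 2-fold, and open circles are genes not well above background on 1 of the arrays. The list medians run from 1.91 for the chemokines to -0.40 for the heat shock chaperones.

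Along the genome the medians stayed close to 0. Over 23 chromosomes the median log2 ratio ran from -0.03 to 0.06, and over 278 windows of 10 Mb with at least 20 genes from -0.41 to 0.35, with 6 windows beyond 0.25 in either direction. The lowest was on chromosome 9 from 60000001 to 70000000 (29 genes), its neighbour from 70000001 to 80000000 had -0.27 (35 genes), and the highest was on chromosome 5 from 40000001 to 50000000 (34 genes), in hg17 positions.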

How the data were processed

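Total RNA of OM, MB and NM was labelled with Cy3 and hybridised to 1-colour Agilent 4 × 44K arrays. The authors deposited the intensity of each spot as Agilent Feature Extraction (9.5.3.1 in the file headers, 9.5 in the submitters' processing notes) gave it, background-subtracted, with no scaling between arrays. Control spots and outlier spots (77, 79 and 81) were left out, spots of a probe averaged and each array divided by its 75th percentile. A gene is its probe with the highest mean over OM and NM. Measured means well above background on at least 1 of these arrays. No test was run. Names follow the array, updated through a RefSeq gene table (23434 probes matched by accession, 2317 through the symbol, 1043 through a synonym and 14206 kept as printed). Probe positions are hg17, and where probes lie in transcripts was not analysed here. Named genes are the 15 with the largest fold in each direction (lower bounds used), list members with the largest ratios, and genes the study names. A few of these genes are not reported here. The members and lists were chosen with earlier results of these data known. Scripts ran in Python 3.11.15 (numpy 2.4.6, pandas 2.3.3, matplotlib 3.10.9) and R 4.3.3 (limma 3.58.1) and were tested on simulated data. The alternatives were other scalings, background corrections, filters, probes, spot summaries and the deposited value table, whose values equal the spots' (130128 of 130128 within 0.1%).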

Additional observations from a re-analysis of the deposited data

How the results depend on the processing

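Calls of probes (146 higher and 227 lower) and known genes (70 and 33) fell to 69 and 81 probes and 43 and 9 genes with both arrays well above background, to 31 and 39 probes and 24 and 8 genes above 500 a.u., to 57 and 25 probes and 33 and 5 genes without background subtraction, and to 39 and 17 probes and 27 and 5 genes with the normexp correction. The balance of probes thus turned from more lower to more higher without background subtraction and with normexp. Without a floor they were 299 and 514 probes and 140 and 85 genes. The other scalings, kept outlier spots, the median of spots and the deposited value table stayed within 1.5 times of each count. List medians are given here minus the median of all measured genes. With both arrays well above background, the values that moved were Melanocyte -0.10, Integrins and laminins -0.14, Neural crest -0.14, Notch pathway 0.21, Pluripotency -0.18, Cancer-testis antigens -0.11. The sign turned for endothelial -0.33. Above 500 a.u., the values that moved were Melanocyte -0.47, chemokines 2.15, Interleukins 0.61, Interferon-stimulated genes 0.47, Metalloproteinases and TIMPs -0.10, Neural crest -0.34, BMP and TGF-beta pathway 0.29, YAP target genes -0.36, Glycolytic enzymes 0.15, NRF2 0.36, p53 targets and CDK inhibitors 0.35, HOX genes -0.14, Cancer-testis antigens -0.14, epithelial -0.19. The sign turned for Collagens 0.25. With the median over a gene's probes, the values that moved were chemokines 1.84, Neural crest -0.40, Receptor tyrosine kinases and EGF ligands -0.24, HOX genes -0.31, Axon guidance and neuronal 0.10, blood and immune 0.32, epithelial -0.51. The sign turned for Integrins and laminins 0.0136. Without background subtraction, the values that moved were chemokines 1.75, Interleukins 0.37, Neural crest -0.11, Notch pathway 0.21, NRF2 0.41, Cancer-testis antigens -0.12, endothelial 0.16, epithelial -0.33. With the normexp correction, the values that moved were chemokines 1.67, Interleukins 0.38, NF-kB 0.61, Neural crest -0.12, Notch pathway 0.16, Wnt 0.13, NRF2 0.39, Cancer-testis antigens -0.0438, epithelial -0.32. With quantile normalization, the values that moved were chemokines 1.72, NF-kB 0.50, MHC class I 0.46, Plasminogen system and serpins -0.28, Collagens -0.29, Neural crest -0.11, BMP and TGF-beta pathway 0.20, Wnt 0.10, Receptor tyrosine kinases and EGF ligands -0.16, MAPK feedback and immediate early genes -0.0590, Amino acid response 0.54, Aminoacyl-tRNA synthetases 0.23, Heat shock chaperones -0.50, Hypoxia response 0.40, Glycolytic enzymes 0.0298, NRF2 0.28, Cell cycle and DNA replication 0.11, Ribosomal proteins 0.14, Axon guidance and neuronal 0.28, blood and immune 0.39, endothelial 0.49. The sign turned for Sterol synthesis and uptake -0.0136, Respiratory chain -0.0072. Of 505 list values 435 stayed, 65 moved and 5 turned, and over 196 named genes 1674 values stayed, 769 moved and 0 turned. Dividing by nothing shifted the median log2 ratio of all measured genes from -0.02 to -0.14. The causes were not tested. No paired analysis was possible because each population has 1 array. Signal over background limits the dim genes, and having 1 array a side gives no biological error.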
